A study of Mus musculus with 12 samples.

Results

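The 10 genes described here serve the recognition and uptake of dying cells and of blood-borne waste: the receptors Mertk, Axl and Tyro3, the bridging proteins Gas6 and Mfge8, the scavenger receptors Stab1, Stab2, Lrp1 and Msr1, and the engulfment adaptor Elmo1. They were taken by name, each symbol matched to 1 Ensembl gene, from a table of 24187 genes counted in mouse liver. The choice was made with earlier results of these data known. All 10 passed the filter on low counts, which left 22581 genes for testing. Livers of C57BL/6J mice (C57BL6/JOlaHsd in the methods) aged 10 to 12 weeks were measured by bulk RNA sequencing in 3 groups. Control mice (n = 3) had no liver injury. The vehicle group (n = 5) and the hAAM group (n = 4) both received acetaminophen (APAP), a painkiller that kills the hepatocytes around the central vein at high doses, at 350 mg/kg by the labels and after a 12 h fast by the methods. They were then given vehicle or hAAMs, which are human monocyte-derived macrophages activated with IL-4 and IL-13, 16 h after APAP. The labels name the vehicle as PBS, and the methods as PBS with or without a cryopreservation medium. The study's text names a higher dose for its severe model, and it places liver collection at 32 h after APAP in one place and at 36 h in another. The labels call the controls untreated, while the methods also name saline injections after the fast. Whether these controls were fasted or injected is not clear. Effects of the injections themselves and of fasting therefore cannot be told apart from those of APAP. Reads were aligned to the mouse genome alone, so transcripts of the infused human cells were not measured separately.

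Clearance of dying cells, or efferocytosis, starts when phosphatidylserine appears on the outer face of a dying cell. Gas6 and Mfge8 bind this lipid and link it to a phagocyte, Gas6 through the receptor tyrosine kinases Tyro3, Axl and Mertk (the TAM family) and Mfge8 through αv integrins. Stabilins on sinusoidal endothelium, Msr1 on macrophages and Lrp1 on hepatocytes and other cells remove modified proteins, remnant lipoproteins and debris, and Elmo1 with its Dock partners activates Rac to close the membrane around the cargo.

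Depth per liver was 60870399 to 74056505 counts in controls, 50859599 to 61826952 in the vehicle group and 47391650 to 55379420 in the hAAM group. Levels are given as CPM (counts per 1e+06 counts of a library) after TMM scaling of the library sizes. Calls are those of edgeR's quasi-likelihood test over all 22581 genes at a Benjamini-Hochberg false discovery rate (FDR) under 0.05. Without TMM, that is with library size as the only scaling, the typical gene's log2 fold change (the median) moved from 0.01 to 0.36 in the vehicle group and from 0.02 to 0.32 in the hAAM group, both against control, so each change below is relative to the typical gene. The labels do not tie replicates to cages or days, and p-values set each group difference against the spread between these livers within their groups. The sample names carry numbers in an earlier and a later run, and what the runs stand for is not stated. All hAAM livers, vehicle replicates 1 to 3 and control replicate 1 carry earlier numbers. Vehicle replicates 4 and 5 and control replicates 2 and 3 carry later numbers, so the runs are spread unevenly over the groups. Vehicle replicate 3 and hAAM replicate 4, though labelled as different treatments, were nearly the same library: their counts spread by 1.19 times counting noise, against 2.64 to 6.86 times in the other 35 pairs of injured livers. Both were kept and entered each test as separate livers, and values without them are given where they matter. Liver identity was checked with 8 hepatocyte markers. Their summed level was 52482 to 83038 CPM in controls, 57921 to 87217 CPM in the vehicle group and 60715 to 91516 CPM in the hAAM group. Without Alb, the most abundant marker, the sums were 16780 to 21220, 10949 to 17404 and 11728.5 to 22183 CPM. Against control, 4 of the 8 were called lower with vehicle and 1 with hAAMs, and none higher. Of all genes, 14.8% and 9.96% were called lower.

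The start regions of a pair of receptors and a pair of ligands show the sequences beside the contrasts that follow: Axl rose after injury while Mertk was not called, and Mfge8 rose while Gas6 fell. Each sequence is the 250 bases before the RefSeq transcript start on GRCm38.p6, read 5′ to 3′ on the strand of the gene. Capitals mark a GC box (GGGCGG) or a PU box (GAGGAA, a core bound by PU.1 and other ETS factors) on either strand. Mertk is shown at chr2:128698665-128698914 on the plus strand, and Axl at chr7:25788734-25788983, Gas6 at chr8:13494536-13494785 and Mfge8 at chr7:79149061-79149310 on the minus strand.
Mertk: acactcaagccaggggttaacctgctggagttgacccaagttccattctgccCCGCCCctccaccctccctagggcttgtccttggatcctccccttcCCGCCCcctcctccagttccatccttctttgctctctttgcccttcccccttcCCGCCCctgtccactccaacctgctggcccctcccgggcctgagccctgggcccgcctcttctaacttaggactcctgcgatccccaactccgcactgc
Axl: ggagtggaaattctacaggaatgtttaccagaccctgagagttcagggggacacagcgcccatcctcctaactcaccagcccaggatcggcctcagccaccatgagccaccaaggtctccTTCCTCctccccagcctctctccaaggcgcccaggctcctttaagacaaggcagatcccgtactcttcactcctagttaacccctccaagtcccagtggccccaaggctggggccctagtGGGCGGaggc
Gas6: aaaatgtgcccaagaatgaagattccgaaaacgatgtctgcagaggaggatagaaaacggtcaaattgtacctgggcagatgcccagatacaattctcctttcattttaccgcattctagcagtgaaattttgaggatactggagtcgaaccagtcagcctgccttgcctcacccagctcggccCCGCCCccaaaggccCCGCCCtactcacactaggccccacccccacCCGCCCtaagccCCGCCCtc
Mfge8: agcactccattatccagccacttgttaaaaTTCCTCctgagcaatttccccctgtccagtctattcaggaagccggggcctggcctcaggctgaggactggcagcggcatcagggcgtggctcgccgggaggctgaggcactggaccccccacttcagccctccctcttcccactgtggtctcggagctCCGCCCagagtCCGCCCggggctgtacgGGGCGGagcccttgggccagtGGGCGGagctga

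The GC content of these windows was 63.6% for Mertk, 60.0% for Axl, 54.8% for Gas6 and 65.2% for Mfge8. GC boxes numbered 3 in Mertk, 1 in Axl, 4 in Gas6 and 4 in Mfge8, so both the ligand that rose and the ligand that fell held several. A PU box was found once in Axl and once in Mfge8 and in neither of the other windows shown. RefSeq windows were found for 9 of the 10 genes, all but Msr1. At least 1 GC box stood in 7 of these 9 genes, against 32.7% of 32851 windows of the same length over all genes. A gene was counted if any of its windows held the motif, whereas the share over all genes is per window. Only Elmo1 had more than 1 window, and its matches all lay in 1 of them. PU boxes stood in 3 of 9 (Axl, Mfge8 and Stab1), against 23.3% of all windows. Tyro3 and Elmo1, which also rose in both injured groups, held no PU box. Among the other motifs, also searched on both strands, AP-1 sites (TGANTCA) stood in 6.75% of all windows and in 0 of the 9 genes. An E-box (CACGTG) stood in 6.02% of all windows and again in 0 of 9. The TATA box, searched as TATAAA, stood in 12.4% of all windows and in Elmo1 alone of the 9. CCAAT stood in 33.8% of all windows and in Stab1 alone of the 9. A match describes these letters and is not evidence of binding.

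After APAP with vehicle, 8 of the 10 genes changed from control: Axl, Tyro3, Mfge8, Stab1, Msr1 and Elmo1 rose, and Gas6 and Lrp1 fell. Of all genes tested, 29.8% were called in this comparison, 15.0% higher and 14.8% lower. Group ranges did not overlap for 9 of the 10, beside 34.8% of all genes, and 9 had an unadjusted p under 0.05, beside 41.8%. Over the 10 genes the median of the log2 fold changes was 0.75, and over all tested genes 0.01. After APAP with hAAMs, 6 of the 10 were called: Axl, Tyro3, Mfge8 and Elmo1 rose, and Gas6 and Lrp1 fell, beside 20.7% of all genes (10.7% higher, 9.96% lower). Ranges did not overlap for 7 of the 10, beside 28.5% of all genes, and 8 had an unadjusted p under 0.05, beside 35.2%. The median was then 0.62 over the 10 genes and 0.02 over all genes. Both comparisons used the same 3 control livers. Between hAAM and vehicle, 0 of the 10 genes and 0 of all genes (0% called) passed the edgeR threshold.

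**Figure D1:**
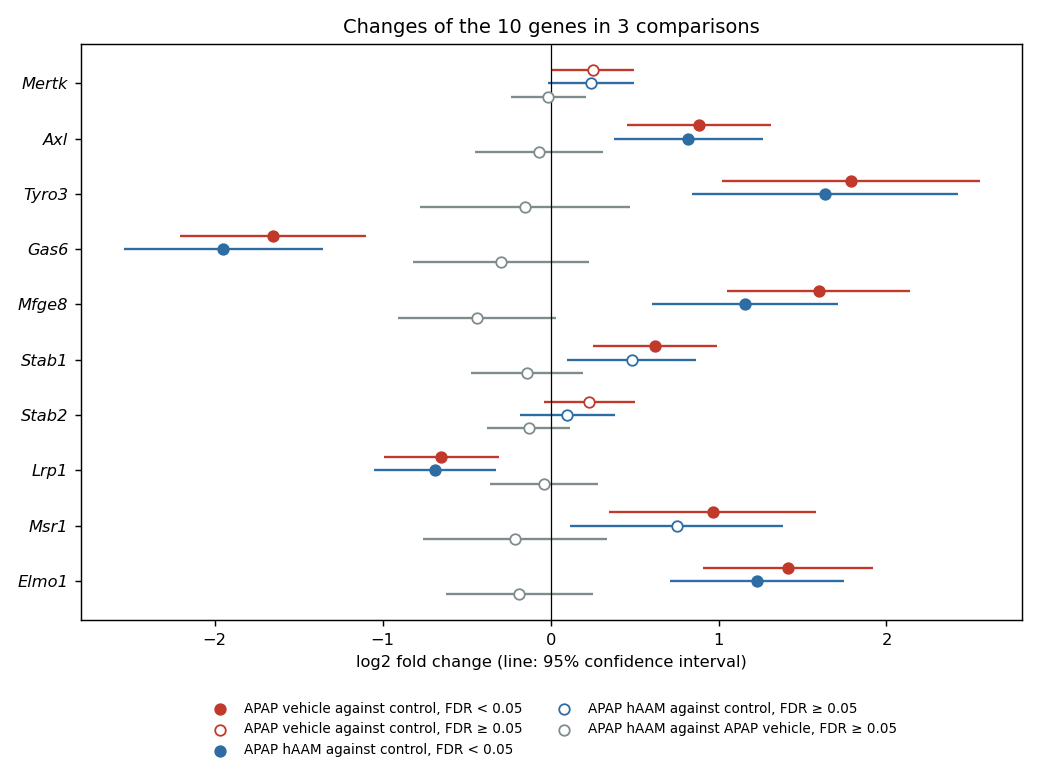
Fitted log2 fold change of each of the 10 genes (x axis) in 3 comparisons, with 95% confidence intervals as lines. Filled points passed an FDR of 0.05 and open points did not. Gas6 and Lrp1 lie left of 0 against control, and every interval of hAAM against vehicle (grey) crosses 0.

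Among the TAM receptors, Axl, which is induced by inflammatory signals in macrophages and dendritic cells, rose in both injured groups. Axl lies at chr7:25757273-25788705 on the minus strand. Its levels were 33.1, 37.1 and 38.3 CPM in control replicates 1 to 3. They were 85.4, 71.5, 50.6, 75.9 and 50.9 CPM in vehicle replicates 1 to 5, and 81.9, 66.3, 57.0 and 50.1 CPM in hAAM replicates 1 to 4. All 9 injured livers lay above all controls. The log2 fold change was 0.89 with vehicle (standard error 0.197, edgeR FDR 0.00635) and 0.82 with hAAMs (standard error 0.204, FDR 0.0161). Without control replicate 1 the hAAM call was lost (0.76, edgeR FDR 0.0577).

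Mertk, the TAM receptor that resident macrophages use for steady-state clearance, sits at chr2:128698956-128802894 on the plus strand. Controls held 27.4, 29.9 and 31.7 CPM of Mertk. Vehicle-treated livers held 38.5, 37.1, 34.9, 32.5 and 34.1 CPM, and hAAM-treated livers 29.9, 31.96, 43.6 and 34.8 CPM. The vehicle group lay above the controls with a narrow gap, whereas the hAAM group overlapped them. Mertk did not pass the threshold with vehicle (log2 fold change 0.25, 95% interval 0.01 to 0.50, edgeR FDR 0.108) or with hAAMs (0.24, interval −0.02 to 0.50, FDR 0.167). Scaled by library size alone it was called in both groups (0.60, edgeR FDR 0.000757 and 0.53, FDR 0.00308), and it was called with vehicle when hAAM replicate 3 was left out of the shared fit (0.25, FDR 0.0306).

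Tyro3, the TAM receptor best known from the nervous system, was rare in liver and is annotated at chr2:119797733-119818104 on the plus strand. It had 22 to 25 counts in each control, 45 to 123 in the vehicle group and 36 to 103 in the hAAM group. In CPM these were 0.438, 0.393 and 0.435 in controls, 1.84, 1.15, 0.871, 1.82 and 1.598 with vehicle, and 1.95, 1.50, 0.697 and 1.10 with hAAMs. The groups with injury did not overlap the controls. Tyro3 had the largest rise of the 10 genes in both comparisons, with a log2 fold change of 1.79 (standard error 0.353, edgeR FDR 0.00347) with vehicle and 1.63 (standard error 0.364, FDR 0.0102) with hAAMs. In absolute terms it remained the least abundant of the 10 genes.

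**Figure D2:**
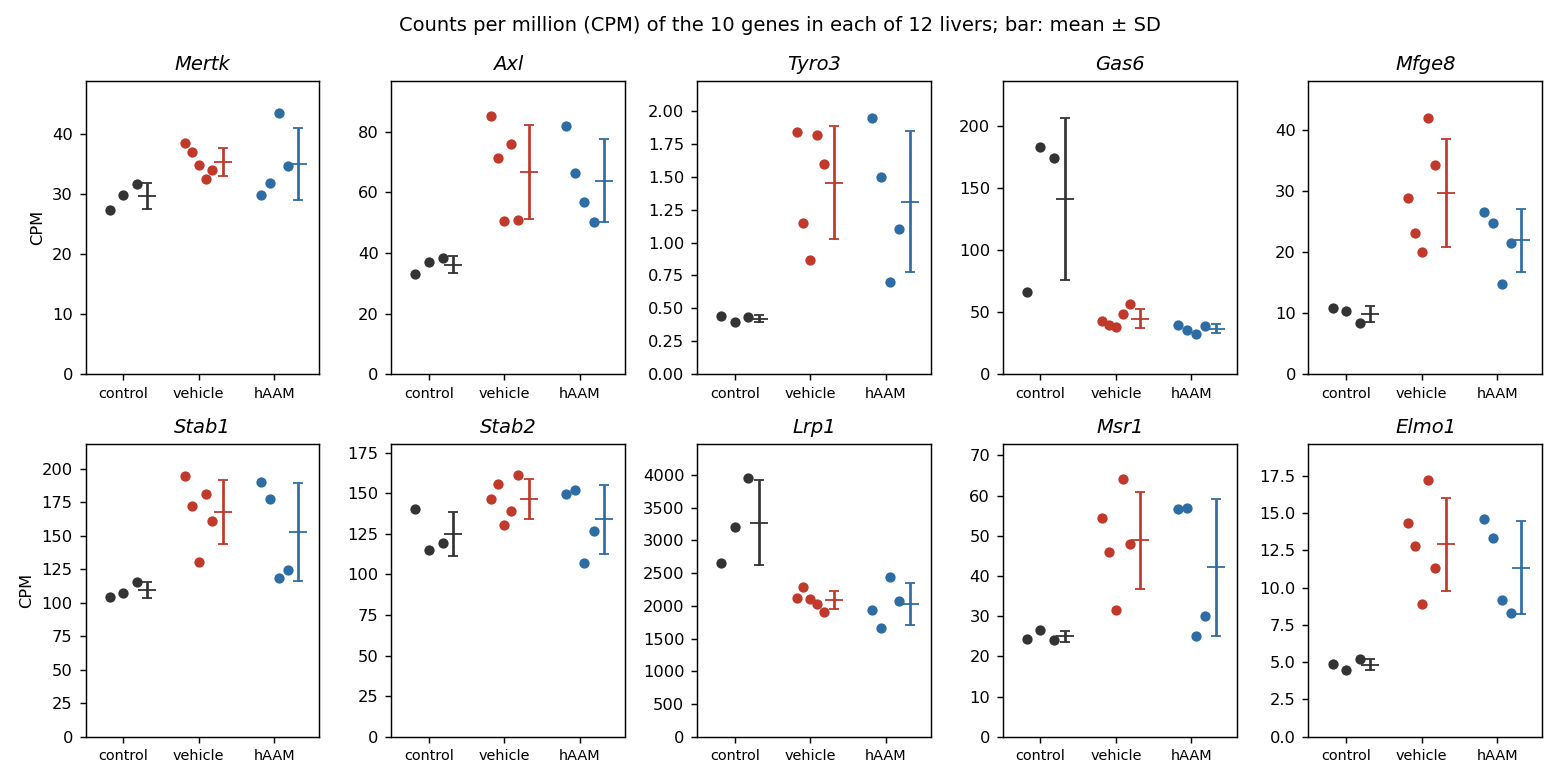
Level of each gene in CPM (y axis, from 0, a scale of its own for each gene) in every liver of the control, vehicle and hAAM groups. Points are livers and bars the mean ± SD. Gas6 is lower in all 9 injured livers than in all controls, while Tyro3, Mfge8 and Elmo1 are higher in all 9.

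The 2 bridging proteins moved in opposite directions. Gas6, a vitamin K-dependent protein and the ligand shared by all TAM receptors, lies at chr8:13465374-13494490 on the minus strand. It was at 66.2, 183 and 174 CPM in control replicates 1 to 3. With vehicle it was at 42.8, 39.3, 37.8, 48.1 and 56.3 CPM, and with hAAMs at 39.8, 35.5, 32.1 and 38.9 CPM. All injured livers lay below all controls, yet control replicate 1 was much closer to them than to the other controls. It is also the only control with an earlier sample number, so the numbering and the spread of single controls cannot be told apart. Gas6 fell by 1.65 on the log2 scale with vehicle (standard error 0.254, edgeR FDR 0.000984) and fell by 1.95 with hAAMs (standard error 0.272, FDR 0.00117). Without control replicate 1 the log2 fold changes were −1.99 (standard error 0.136, edgeR FDR 1.90e-05) and −2.29 (standard error 0.144, FDR 2.77e-05). The same control also had the highest level of Socs3, a feedback inhibitor of cytokine signalling, with 189 CPM against 51.0 and 72.9 CPM in the other controls. Its part in the result was not tested.

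Mfge8, also called lactadherin, which links phosphatidylserine to integrins, is at chr7:79133768-79149060 on the minus strand. The controls had 10.8, 10.3 and 8.36 CPM. The vehicle group had 28.9, 23.1, 20.04, 42.0 and 34.3 CPM and the hAAM group 26.6, 24.8, 14.8 and 21.4 CPM. Again no injured liver reached down to the controls. The log2 fold change of Mfge8 was 1.60 with vehicle (standard error 0.252, edgeR FDR 0.00115) and 1.16 with hAAMs (standard error 0.255, FDR 0.00980). The balance of the ligands within each liver was compared per kilobase of exon, a ratio chosen after the values were seen and not tested. Mfge8 stood at 0.0260 to 0.0883 of the Gas6 level in controls, 0.288 to 0.473 with vehicle and 0.249 to 0.379 with hAAMs. The TAM ligand Pros1 (protein S), which binds Mertk and Tyro3, was not called with vehicle (log2 fold change −0.41, edgeR FDR 0.0675) or with hAAMs (−0.20, FDR 0.406).

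The stabilins, large receptors of the liver sinusoid that take up hyaluronan, collagen fragments and oxidised lipoproteins and can also bind phosphatidylserine, differed from one another. Stab1, made by sinusoidal endothelium and by macrophages, is at chr14:31139013-31168641 on the minus strand. It was at 104, 108 and 116 CPM in controls. With vehicle it was at 194, 172, 131, 182 and 161 CPM, and with hAAMs at 190.3, 178, 118 and 125 CPM. Neither injured group overlapped the controls, though hAAM replicate 3 came close. Stab1 rose with vehicle (log2 fold change 0.62, standard error 0.170, edgeR FDR 0.0175) and was not called with hAAMs (0.48, 95% interval 0.10 to 0.87, FDR 0.0714). The vehicle call was lost without control replicate 1 (0.59, edgeR FDR 0.0607) or 2 (0.61, FDR 0.0532). With hAAMs Stab1 was called without hAAM replicate 3 (0.59, edgeR FDR 0.0272), without hAAM replicate 4 (0.57, FDR 0.0453) and without both near-identical libraries (0.57, FDR 0.0311), and DESeq2 called it as well (FDR 0.0431).

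Stab2, the hyaluronan clearance receptor that is the more restricted of the pair to sinusoidal endothelium, is at chr10:86841198-87008025 on the minus strand. Controls had 141, 115 and 119 CPM of Stab2. The vehicle livers had 146, 156, 131, 139 and 161 CPM and the hAAM livers 149.9, 152, 107 and 127 CPM, so all groups overlapped. Stab2 was not called with vehicle (log2 fold change 0.23, 95% interval −0.04 to 0.50, edgeR FDR 0.178) or with hAAMs (0.10, interval −0.18 to 0.38, FDR 0.616). Scaled by library size alone it was called with vehicle (0.58, edgeR FDR 0.0132). Per kilobase of exon, the ratio of Stab1 to Stab2 was 0.632 to 0.827 in controls, 0.849 to 1.13 with vehicle and 0.835 to 1.08 with hAAMs, a ratio chosen after the values were seen and not tested.

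Of 12 markers of sinusoidal endothelium, 6 changed with vehicle (5 higher, 1 lower), beside 29.8% of all genes, and 4 with hAAMs (3 higher, 1 lower), beside 20.7%. Their summed level was 415 to 465 CPM in controls, 453 to 551 CPM with vehicle and 445 to 502 CPM with hAAMs, and no marker was at 0 in any liver. The part of endothelial content in the stabilin values was not tested. In bulk tissue, fewer cells of a type and less RNA per cell cannot be told apart.

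Lrp1, the receptor for remnant lipoproteins, α2-macroglobulin and calreticulin-marked cells, was by far the most abundant of the 10 genes and lies at chr10:127538161-127621148 on the minus strand. Controls had 2662, 3199.5 and 3956 CPM. With vehicle Lrp1 was at 2118, 2283, 2099, 2028 and 1899.8 CPM, and with hAAMs at 1939.9, 1662, 2446 and 2073 CPM. All injured livers were below all controls, and the controls were themselves widely spread. Lrp1 fell by 0.65 on the log2 scale with vehicle (standard error 0.157, edgeR FDR 0.00971) and fell by 0.69 with hAAMs (standard error 0.166, FDR 0.0142). Both calls were lost without control replicate 3, the highest control (−0.49, edgeR FDR 0.0581 and −0.53, FDR 0.0715), and the hAAM call also when the hAAM and control groups were fitted without the vehicle group (−0.68, FDR 0.0647). Under scaling by library size alone the vehicle change was −0.30 (edgeR FDR 0.0720).

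Msr1, the class A scavenger receptor of macrophages, which binds modified lipoproteins and debris, is at chr8:39581685-39642673 on the minus strand. Its control levels were 24.3, 26.6 and 24.1 CPM. With vehicle Msr1 had 54.3, 46.0, 31.6, 64.2 and 48.0 CPM, and with hAAMs 56.5, 56.8, 25.0 and 30.1 CPM. The vehicle group lay wholly above the controls, and hAAM replicate 3 fell within the control range. The log2 fold change was 0.96 with vehicle (standard error 0.283, edgeR FDR 0.0236) and 0.75 with hAAMs (standard error 0.291, 95% interval 0.12 to 1.38, FDR 0.0869). This vehicle call had the highest FDR of the 8. It was lost without control replicate 1 (0.95, edgeR FDR 0.0698), 2 (1.01, FDR 0.0546) or 3 (0.94, FDR 0.0743) and without vehicle replicate 4 (0.85, FDR 0.0505). With hAAMs Msr1 was called without hAAM replicate 3 (0.93, edgeR FDR 0.0244) and without both near-identical libraries (0.88, FDR 0.0387), and by DESeq2 (FDR 0.0498).

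Elmo1, the scaffold that pairs with Dock proteins to switch on Rac below an engulfment receptor, spans chr13:20090596-20608353 on the plus strand. Its levels were 4.86, 4.45 and 5.22 CPM in controls. They were 14.3, 12.8, 8.87, 17.2 and 11.3 CPM with vehicle and 14.6, 13.3, 9.14 and 8.29 CPM with hAAMs. The injured groups stood clear of the controls. Elmo1 rose by a log2 fold change of 1.41 with vehicle (standard error 0.233, edgeR FDR 0.00140) and 1.23 with hAAMs (standard error 0.239, FDR 0.00555). Dock1, its partner in many cell types, was not called in either group (0.31, edgeR FDR 0.0599 and 0.28, FDR 0.113), while Dock2, the form of blood cells, rose with vehicle (1.25, FDR 0.00205) and with hAAMs (1.40, FDR 0.00260).

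Exons of 4 of the 10 genes overlap an exon of a gene on the opposite strand, and whether the counting used strand is not stated in the sources used here. Elmo1 shares 403 bases with the antisense gene Gm32036, Stab2 141 bases with Gm16268, Stab1 112 bases with Nt5dc2 and Gas6 34 bases with Tmem255b. These neighbours had far fewer counts than the genes they overlap: at most 46 for Gm32036, 111 for Gm16268, 569 for Nt5dc2 and 21 for Tmem255b in any liver, against at least 255, 5538, 5473 and 1660 for Elmo1, Stab2, Stab1 and Gas6.

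Levels of different genes were compared as CPM per kilobase of merged exons. In controls Lrp1 led with a mean of 185 ± 36.7 (SD, n = 3), followed by Gas6 at 55.4 ± 25.5, Stab2 at 14.3 ± 1.57 and Stab1 at 10.6 ± 0.582. Axl (7.19 ± 0.543) and Mertk (6.85 ± 0.498) came next with overlapping ranges, then Msr1 (3.94 ± 0.216), Mfge8 (2.09 ± 0.273), Elmo1 (0.385 ± 0.0304) and Tyro3 (0.0681 ± 0.00404). All other neighbours in the control order had ranges that did not overlap.

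With vehicle this order closed up below Lrp1 (118 ± 7.89, n = 5). Gas6 (17.6), Stab2 (16.7), Stab1 (16.3) and Axl (13.3) formed a run in which neighbours overlapped, followed by a second run of Mertk (8.16), Msr1 (7.70) and Mfge8 (6.32), and then Elmo1 (1.02) and Tyro3 (0.235). With hAAMs (n = 4) Lrp1 was at 115, every neighbour from Stab2 (15.3) through Stab1 (14.8), Gas6 (14.4), Axl (12.7), Mertk (8.09) and Msr1 (6.64) to Mfge8 (4.66) overlapped the next, and Elmo1 (0.901) and Tyro3 (0.212) again came last. Axl and Mertk, level in controls (ratio 1.04 to 1.07), had a ratio of 1.25 to 2.01 with vehicle and 1.12 to 2.36 with hAAMs, which was chosen after the values were seen and not tested.

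**Figure D3:**
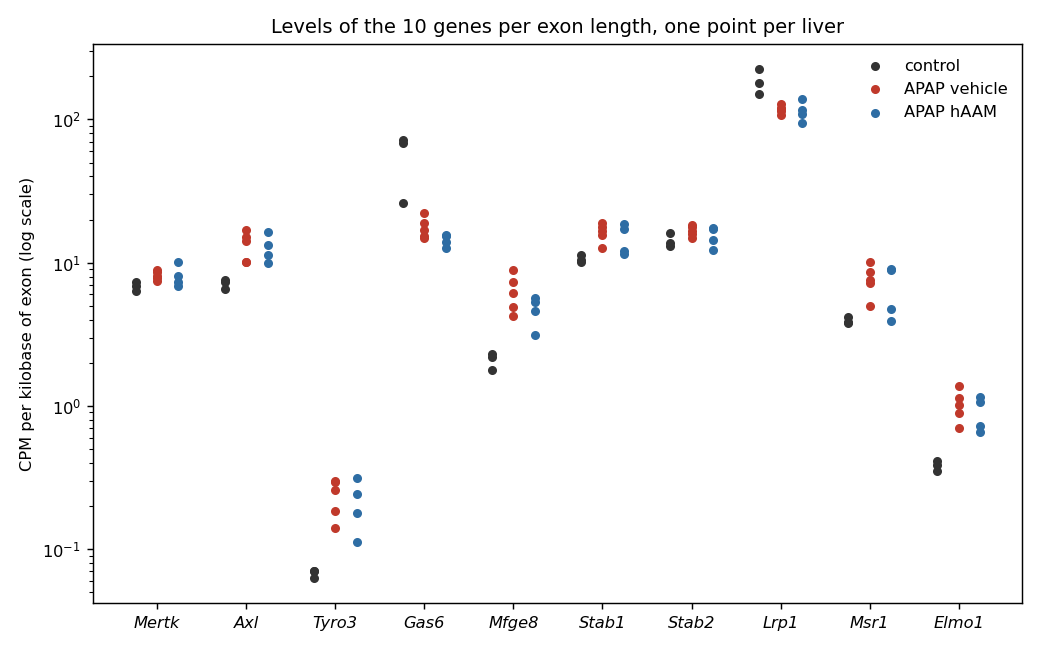
Level of each gene per exon length, in CPM per kilobase on a log axis, with 1 point per liver and the 3 groups side by side. Lrp1 is the highest and Tyro3 the lowest gene in each group, and the gap between Gas6 and the stabilins seen in controls is absent in the injured livers.

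No difference between hAAM and vehicle was detected for any of the 10 genes. At an unadjusted p under 0.05, 0 of the 10 were counted, beside 5.02% of all genes (1133). The near-identical libraries stand on opposite sides of this comparison. Without both, 1530 of 22477 genes had an unadjusted edgeR p under 0.05, with Mfge8 alone of the 10 among them, and 0 genes were called. Group ranges overlapped for all 10, where 1.40% of all genes had ranges that did not. DESeq2 called 1 gene of the whole table in this comparison, and it was not one of the 10. All 10 fitted differences were below 0, compared with 49.1% of all genes tested. They ran from −0.44 for Mfge8 to −0.01 for Mertk with a median of −0.15, against 0.00 over all genes. The genes share livers, and for 4 of them the sign changed when 1 liver was left out: Mertk, Axl, Tyro3 and Lrp1.

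For Mfge8, the gene with the largest fitted difference, the 95% interval was −0.91 to 0.03 (edgeR unadjusted p = 0.0656, FDR 0.966). Without both near-identical libraries it was −0.54 (edgeR unadjusted p = 0.0388, FDR 0.716). For Gas6 the difference was −0.29 with an interval of −0.82 to 0.23, and −0.39 without both near-identical libraries. Intervals for the receptors were −0.24 to 0.21 for Mertk, −0.45 to 0.31 for Axl and −0.78 to 0.47 for Tyro3. They were −0.47 to 0.20 for Stab1, −0.38 to 0.12 for Stab2, −0.36 to 0.28 for Lrp1 and −0.76 to 0.33 for Msr1, and −0.62 to 0.25 for Elmo1. Each interval crossed 0, and the widest left room for a difference in either direction. Stab1 and Msr1 passed the threshold against control with vehicle alone, and this direct comparison is the test of whether their changes differed between the treatments (log2 difference −0.14, edgeR FDR 0.984 and −0.21, FDR 0.986).

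The injured livers also varied within their groups. For 6 of the 10 genes (Tyro3, Mfge8, Stab1, Stab2, Msr1 and Elmo1), the 3 lowest of the 9 injured livers were hAAM replicates 3 and 4 and vehicle replicate 3, of which the last 2 are the near-identical libraries. Of all genes tested, 11.5% had these same livers as their lowest 3 and 9.10% as their highest 3. The 3 livers were picked after the values of the 10 genes were seen, so these shares are a description and not a test. Mertk and Lrp1 were highest in hAAM replicate 3. The same 3 livers had the most Cyp2e1, the hepatocyte enzyme that activates APAP, among the injured livers, with 2464 CPM in hAAM replicate 3, 1300 CPM in vehicle replicate 3 and 1293 CPM in hAAM replicate 4. The other injured livers had 239 to 892 CPM of Cyp2e1 and the controls 2555 to 3992 CPM.

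Of 12 markers of recruited monocytes and macrophages, 6 had these same 3 livers as their lowest among the injured and 6 did not. The former were Ccr2, Chil3, Itgam, Spp1, Cd9 and Fn1, and the latter Ly6c2, Lyz2, Cx3cr1, Gpnmb, Trem2 and S100a4. Spp1 stands in the list of cholangiocyte markers as well. Both markers given here were chosen after their values were seen. Ccr2, the chemokine receptor of inflammatory monocytes, was at 8.81, 9.20 and 9.76 CPM in hAAM replicates 3 and 4 and vehicle replicate 3, at 12.8 to 29.1 CPM in the other injured livers and at 1.92 to 3.47 CPM in controls. Chil3, a secreted protein of monocytes and activated macrophages, was at 17.0, 17.2 and 18.7 CPM in those 3 livers and at 20.4 to 56.1 CPM in the other 6. The part of injury depth or of monocyte content in the values of the 10 genes was not tested.

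**Figure D4:**
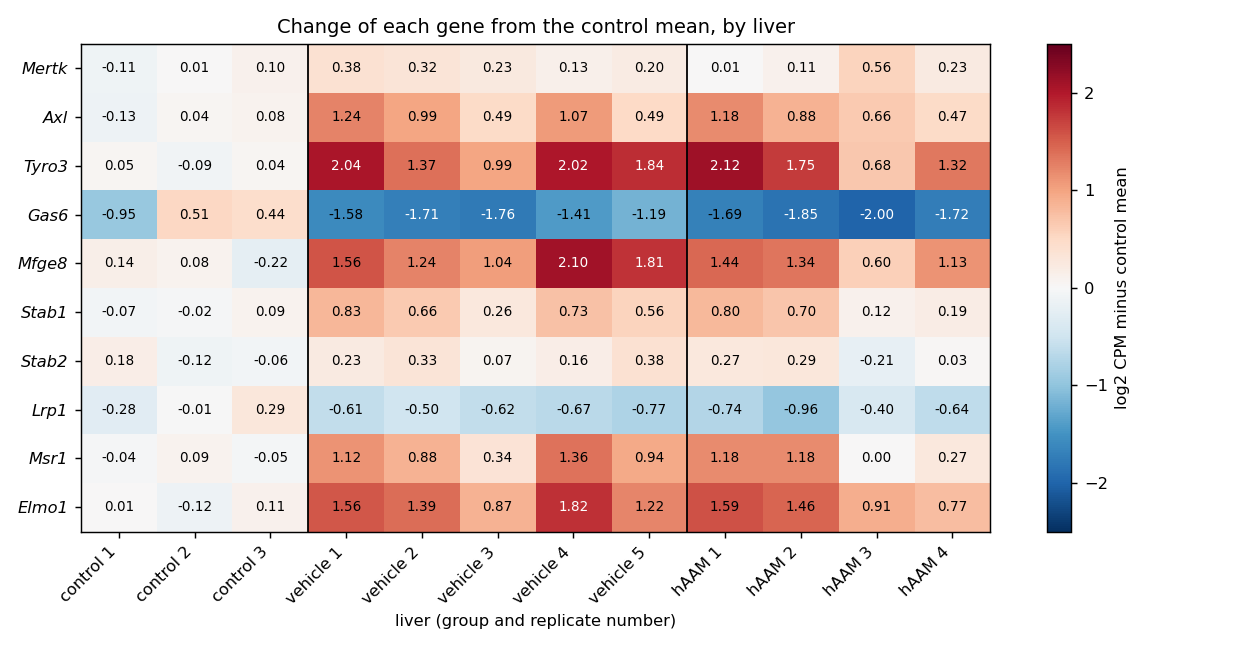
Change of each of the 10 genes in every liver, as log2 CPM minus the mean of the controls (colour and printed value, log2 units), with livers in columns and black lines between the groups. Gas6 and Lrp1 are blue in all injured livers, and the reds of Tyro3, Stab1 and Msr1 are palest in hAAM replicate 3.

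Macrophage markers were looked at as a list, since Mertk, Axl and Msr1, among others, are macrophage receptors. Of 12 markers of recruited monocytes and macrophages, 8 rose with vehicle and 8 with hAAMs, beside 15.0% and 10.7% of all genes, and none fell. Without Fn1, which hepatocytes also make in quantity, their summed level was 86.7 to 104 CPM in controls, 176 to 539 CPM with vehicle and 174 to 546 CPM with hAAMs. With Fn1 the sums overlapped, at 4037 to 5142, 4080 to 6703 and 4004 to 4793 CPM, and 1 marker, S100a4, was at 0 in at least 1 control. Of 12 Kupffer cell markers, 3 were called with vehicle (2 higher, 1 lower), beside 29.8% of all genes, and 2 with hAAMs (1 higher, 1 lower), beside 20.7%. The Kupffer receptor Timd4, which binds phosphatidylserine directly, was not called with vehicle (log2 fold change −0.07, edgeR FDR 0.804) or with hAAMs (−0.03, FDR 0.929). The Kupffer sum was 819 to 1013 CPM in controls, 525 to 846 CPM with vehicle and 630 to 901 CPM with hAAMs. It was 378 to 500, 421 to 711 and 495 to 674 CPM without C6, the most abundant marker of that list. Their part in the changes of the 10 genes was not tested.

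Other genes of the same pathway were counted from 5 lists of 86 genes, of which 82 were tested. The lists were chosen with earlier results of these data known, so the shares of all genes beside the counts are a description and not a test. With vehicle 39 were called (26 higher, 13 lower), beside 29.8% of all genes, and with hAAMs 32 (24 higher, 8 lower), beside 20.7%, and between the treatments 0 were called, with 3 at an unadjusted p under 0.05. Havcr1, Adgrb1, Megf10 and Lrp1b were not analysed here. Itgam, Marco, Timd4, Cd163 and Cd5l stand in a marker list as well. Where a gene is named for 1 treatment, its difference between the treatments is that of the direct comparison, which called none of the 82.

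Of 14 other receptors for phosphatidylserine and apoptotic cells tested, 9 rose with vehicle and 10 with hAAMs and none fell. This stands beside 15.0% and 10.7% of all genes called higher. The medians were 1.44 and 1.29 on the log2 scale. Itgam, the α chain of complement receptor 3, rose with vehicle (2.40, edgeR FDR 0.0225) and with hAAMs (2.27, FDR 0.0414). Cd93, a receptor of endothelium and myeloid cells linked to apoptotic cell uptake, rose by 2.33 (edgeR FDR 0.00252) and 2.04 (FDR 0.00841). Cd300lb, an activating phosphatidylserine receptor of myeloid cells, rose by 2.13 (edgeR FDR 0.00234) and 2.29 (FDR 0.00345).

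Opsonins and bridging proteins other than Gas6 and Mfge8 moved both ways. Of 10 tested, 3 rose and 2 fell with vehicle, beside 15.0% higher and 14.8% lower of all genes. With hAAMs 2 rose and 1 fell, beside 10.7% and 9.96%. The medians in these groups were 0.25 and 0.15. Lgals3 (galectin-3), which macrophages secrete, was at a mean of 3.56 ± 0.0884 CPM in controls (SD, n = 3), 37.8 ± 10.8 CPM with vehicle (n = 5) and 44.6 ± 15.6 CPM with hAAMs (n = 4). Its log2 fold change was 3.40 with vehicle (edgeR FDR 9.15e-05) and 3.64 with hAAMs (FDR 0.000144). Anxa1, a phosphatidylserine-binding protein of leukocytes, rose by 2.03 (edgeR FDR 0.0101) and 2.28 (FDR 0.0108). Thbs1 (thrombospondin-1) rose with vehicle (2.32, edgeR FDR 0.0358) and was not called with hAAMs (2.10, FDR 0.0699). The hepatocyte-made lectin Mbl1 fell by 1.63 with vehicle (edgeR FDR 9.84e-05) and fell by 1.36 with hAAMs (FDR 0.000749). Its relative Mbl2 fell by 1.20 with vehicle (edgeR FDR 0.0110) and was not called with hAAMs (−0.96, FDR 0.0509).

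Of 18 other scavenger receptors, 4 rose and 2 fell with vehicle, beside 15.0% higher and 14.8% lower of all genes. With hAAMs 3 rose and 2 fell, beside 10.7% and 9.96%. The medians in these groups were 0.14 and 0.06. The macrophage genes Cd68 (2.21, edgeR FDR 4.44e-05 and 2.09, FDR 0.000127) and Marco (1.68, FDR 0.000329 and 1.48, FDR 0.00145) rose with vehicle and with hAAMs. Cd36, a fatty acid and oxidised lipoprotein receptor, rose by 1.20 with hAAMs (edgeR FDR 0.00492) and by 0.86 with vehicle (FDR 0.0116). Scarf2 rose with vehicle (0.86, edgeR FDR 0.0163) and was not called with hAAMs (0.60, FDR 0.0965).

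Downstream of the receptors, 17 engulfment signalling genes were tested. With vehicle 5 rose and 3 fell, beside 15.0% higher and 14.8% lower of all genes. With hAAMs 4 rose and 1 fell, beside 10.7% and 9.96%. The medians in these groups were 0.30 and 0.23. The Rac activators Vav1 (1.04, edgeR FDR 0.00417 and 0.89, FDR 0.0156) and Vav3 (1.04, FDR 0.00787 and 1.01, FDR 0.0161) rose in the vehicle and hAAM groups. The adaptor Crkl fell by 0.54 with vehicle (edgeR FDR 0.000781) and fell by 0.43 with hAAMs (FDR 0.00539), and Arhgap12 fell by 0.22 with vehicle (FDR 0.0160) and was not called with hAAMs (−0.13, FDR 0.160).

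Among 23 genes that restrain uptake, shed receptors or handle cargo afterwards, 5 rose and 6 fell with vehicle. Of all genes, 15.0% were higher and 14.8% lower. With hAAMs 5 rose and 4 fell, beside 10.7% and 9.96%. The medians in these groups were −0.08 and −0.05. The glucose transporter Slc2a1 rose (1.35, edgeR FDR 0.000724 with vehicle and 1.11, FDR 0.00392 with hAAMs), as did the sterol exporter Abcg1 (1.04, FDR 0.00244 and 1.18, FDR 0.00293). Its relative Abca1, which hepatocytes express strongly, fell by 0.71 with vehicle (edgeR FDR 0.00149) and was not called with hAAMs (−0.36, FDR 0.0588). The mitochondrial carrier Ucp2 rose with vehicle (1.15, edgeR FDR 0.00136) and with hAAMs (1.02, FDR 0.00491). Sirpa, the inhibitory receptor for the do-not-eat-me signal Cd47, rose in both groups too (1.01, edgeR FDR 0.0106 and 1.13, FDR 0.0116). Cd47 itself was not called (0.18, edgeR FDR 0.0591 and 0.17, FDR 0.105), nor was Adam17, the protease that sheds Mertk and Axl (−0.08, FDR 0.560 and 0.08, FDR 0.606). Socs3 fell by 2.05 with vehicle (edgeR FDR 0.00136) and fell by 2.58 with hAAMs (FDR 0.00127). Rxra, the partner of nuclear receptors that sense lipid, fell by 0.39 with vehicle (edgeR FDR 0.0197) and fell by 0.46 with hAAMs (FDR 0.0183). The lysosomal membrane gene Lamp2 fell by 0.45 with vehicle (edgeR FDR 0.0159) and was not called with hAAMs (−0.33, FDR 0.0895). The early endosome gene Rab5a was not called with vehicle (−0.13, edgeR FDR 0.216) and fell by 0.26 with hAAMs (FDR 0.0373).

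**Figure D5:**
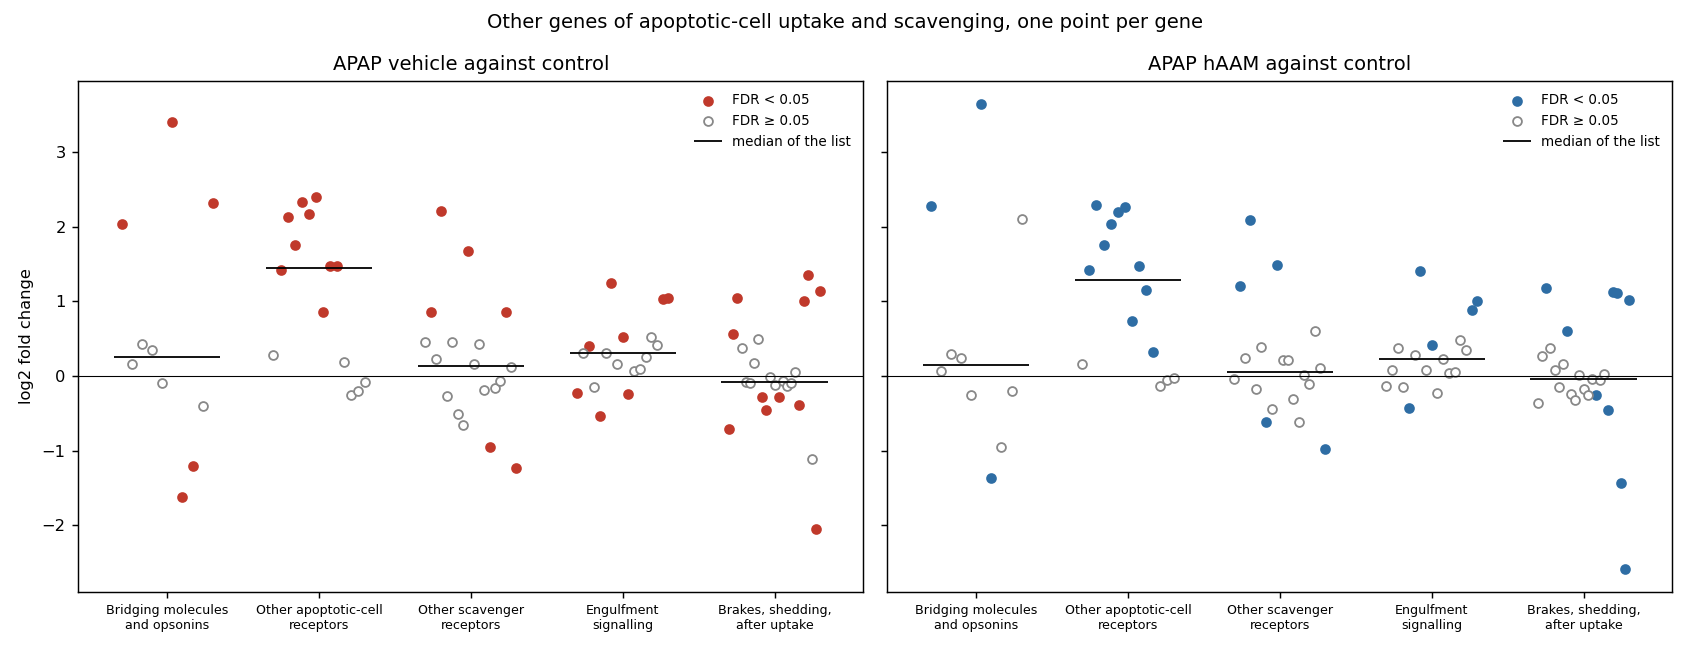
Log2 fold change against control (y axis) of the genes in the 5 pathway lists (x axis), with vehicle on the left and hAAMs on the right. Each point is a gene, filled where it passed an FDR of 0.05, and the black bars are list medians, at 1.44 and 1.29 for the other apoptotic-cell receptors.

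The genes whose levels followed each member most closely were taken from 11172 genes by Pearson's r of log2 CPM over the 12 livers, which is a description of livers that share injury, depth and treatment and of which 2 are nearly the same library. Msr1 was followed most closely by Cryab (r = 0.992), Dok2 and Tgfbr1, Elmo1 by Ttyh3 (r = 0.990), Rasa3 and Slc7a8, and Tyro3 by Coro1c (r = 0.990), Psd4 and Rab31. For Stab1 they were Itga9 (r = 0.987), Etv5 and Gipc1, for Mfge8 Ptp4a3 (r = 0.983), Specc1 and Nid1, and for Axl Dock10 (r = 0.971), Tmem164 and Slc25a12. The genes that fell were matched by Garem1 (r = 0.977), Apon and B3galt1 for Lrp1 and by Dnajc12 (r = 0.973), Gpr180 and Ifitm2 for Gas6. The lowest best matches belonged to Stab2, with Adamts1 (r = 0.932), Polr2f and Rasip1, and to Mertk, with Zfand1 (r = 0.913), Aifm2 and Tango2. With the group means removed, the r of these best matches ran from 0.897 for Mertk to 0.987 for Msr1, over the same livers from which the matches were chosen.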

How the data were processed

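Livers of 12 mice were grouped by the treatment in the labels: control (n = 3), APAP vehicle (n = 5) and APAP hAAM (n = 4). The protocol in the labels names 14 libraries, and 12 samples are listed. The authors prepared directional, ribosomal RNA-depleted libraries, and the submitters' processing notes name Cutadapt 4.6, STAR 2.7.1a, GRCm38, MultiQC 1.25 and DESeq2 1.38.3. What was deposited is a table of the authors' unnormalized read counts per Ensembl gene, made with summarizeOverlaps. Symbols, coordinates and merged exon lengths came from GENCODE on GRCm38, which held 24128 of 24187 genes and left 59 unmatched, and promoter windows came from RefSeq on GRCm38.p6.

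Analyses used R 4.3.3, edgeR 4.0.16, DESeq2 1.42.0 and limma 3.58.1. Low counts were removed with filterByExpr by group, libraries were scaled by TMM, and all 12 livers entered 1 quasi-likelihood fit (robust option off), with two-sided p-values and Benjamini-Hochberg adjustment over all genes. CPM uses TMM-scaled library sizes, and log2 CPM carries a prior count of 2. Depth was 47391650 to 74056505 counts per liver, and the biological coefficient of variation was 0.214. The scripts were tested on simulated data. Alternatives changed the tool, scaling, filter, samples in the fit, robust estimation, threshold and replicate block, or left out each liver in turn or both near-identical libraries.

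All 10 genes are described. Pathway genes were named where they were called without overlap, averaged at least 1 in log2 CPM and were among the 3 largest rises or falls of their list, and Pros1, Timd4, Cd47, Dock1 and Adam17 were always named. A gene that this rule also names is not reported here. Likeness took the 3 closest genes averaging at least 2 in log2 CPM. The 10 genes and the lists were chosen with earlier results of these data known. Socs3 in control replicate 1, Cyp2e1, Ccr2 and Chil3 were named after their values were seen, and the 3 injured livers described together were picked in the same way.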

Additional observations from a re-analysis of the deposited data

Results flagged for a closer look

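Cd47, the do-not-eat-me signal, was at 116 CPM in hAAM replicate 4 and at 123 to 124 CPM in the other hAAM livers, so that this liver stood apart from its group (gap over range 0.862 on the log2 CPM scale). It was the only such case among 84 genes and groups examined by this rule, which took the 10 genes and the named pathway genes in the vehicle and hAAM groups. A gap of this size also arises by chance in about 1 in 20 groups. The vehicle livers had 113 to 128 CPM of Cd47, a range that holds the flagged value. hAAM replicate 4 is one of the near-identical libraries.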

How the results depend on the processing

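All member changes against control kept their direction under every alternative run. Genes called with vehicle numbered 6719, and 3183 at an FDR of 0.01 and 4253 with the replicate block; leaving out 1 liver gave 4633 to 7197. With hAAMs 4666 were called, 7340 with library size alone, 2729 with only the 2 groups compared, 1543 at an FDR of 0.01, 2959 with the replicate block and 2419 to 5456 with 1 liver left out (2419 without control replicate 3, 2799 without hAAM replicate 1, 2942 without hAAM replicate 2, 3027 without control replicate 1). Between hAAM and vehicle the count was 0, 1 with DESeq2, and 0 to 1 with 1 liver left out (1 without vehicle replicate 3).

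Of the 10 genes, 6 to 9 were called with vehicle with 1 liver left out (4 to 7 higher, 1 to 2 lower), and 1 was lower with library size alone. With hAAMs 5 to 8 were called with 1 liver left out (3 to 6 higher, 1 to 2 lower). At an FDR of 0.01, 3 were called (2 higher, 1 lower), library size alone gave 7 higher, and fitting only the 2 groups gave 1 lower, since Lrp1 was lost (edgeR FDR 0.0647). That fit called Mertk with vehicle (edgeR FDR 0.0345), and DESeq2 called Stab1 (FDR 0.0431) and Msr1 (FDR 0.0498) with hAAMs. Pathway genes called numbered 23 with vehicle and 18 with hAAMs at an FDR of 0.01, and 32 to 45 and 21 to 38 with 1 liver left out. The lowest pathway counts and the single lower member came without control replicate 3. Depth limited Tyro3 most, with 22 to 25 counts per control.

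Between the treatments the sign changed for Mertk (0.0192 without vehicle replicate 1, 0.00463 without vehicle replicate 2, 0.0573 without hAAM replicate 1, 0.0293 without hAAM replicate 2; range −0.14 to 0.0573), Axl (0.0375 without vehicle replicate 1, 0.0340 without hAAM replicate 4; range −0.21 to 0.0375), Tyro3 (0.0548 without hAAM replicate 3; range −0.41 to 0.0548) and Lrp1 (0.0470 without hAAM replicate 2; range −0.14 to 0.0470). The cause was not tested.

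Replicate numbers recur across groups but do not pair the livers: the 10 same-numbered pairs correlated between −0.46 and 0.38 and 2 of 11 livers correlated best with their own number. With the replicate block, Msr1 with vehicle was no longer called (0.90, edgeR FDR 0.0559).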
